A study of Homo sapiens with 6 samples.

Results

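The genes described here are 9 members of the platelet-derived growth factor (PDGF) and vascular endothelial growth factor (VEGF) families, taken by gene name from the 35639 genes of the deposited table. They are the PDGF ligands PDGFA, PDGFB, PDGFC and PDGFD, the PDGF receptors PDGFRA and PDGFRB, and the VEGF ligands VEGFA, VEGFB and VEGFC. RNA was sequenced from hFOB 1.19, human fetal osteoblasts kept dividing by an SV40 large T antigen that is active at the lower of its growth temperatures. The cells carried a lentiviral dTomato vector that was empty (EV) or expressed HA-tagged histone H3.3, either wild type (WT) or with glycine 34 changed to tryptophan (G34W). The H3.3 coding sequence was that of Drosophila, the sorted cells expressed it beside their own H3.3, and all were grown at 34 °C and collected 15 days after transduction. Each group had 2 libraries. EV replicate 1 was left out because most genes outside chromosomes 10, 11 and 12 were listed at 0 in it, so the comparisons rest on 5 libraries. The study uses replicate for separate wells of 1 experiment, and separate transductions are not stated for these libraries, so p-values measure the spread between these libraries.

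The groups follow the library titles. The genotype field of the labels gives WT to the libraries titled G34W and G34W to those titled WT, and if that field is right every sign of the G34W and WT comparison turns round. The values are estimated counts normalised between libraries. In the 5 libraries used they summed to between 38821143 in G34W replicate 1 and 48024590 in WT replicate 2. They summed to 157595150 in EV replicate 1, which was left out. Since they are not whole reads, the depth behind a single value is unknown.

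One library stood apart. G34W replicate 1 correlated with the other 4 libraries at 0.898 to 0.906 (Pearson, log2 values of 13403 genes), whereas those 4 correlated with one another at 0.966 to 0.978. All 12 pluripotent stem cell markers examined were highest in it, and their summed level was 66576 there against 964 to 1142 in the other 4 libraries. POU5F1, a core transcription factor of pluripotent cells and the marker with the highest mean over the 5 libraries, was at 19441 in G34W replicate 1 and at 41.6 to 75.4 elsewhere, where DNMT3B was the highest of the 12 at 395 to 541. The part of these transcripts in any result below was not tested. The differences of G34W from WT are given with and without this library, except for PDGFRA summed with a second gene model.

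The osteoblast label was met in part. Marker values here and above are normalised counts not divided by transcript length, so the highest marker of a list is the one with most counts. The 12 osteoblast markers summed to between 192256 and 262326, led by the collagen gene COL1A2, and RUNX2, the master transcription factor of the lineage, was at 236 to 573. Of genes of later differentiation, SP7 was at 1.43 to 6.03 and IBSP was listed at 0 in all libraries but EV replicate 2, at 2.50, whereas SPP1 was at 171 to 649 and ALPL at 107 to 428, apart from 1216 in G34W replicate 1, the library with pluripotency transcripts. Of other cell types that use these growth factors, the 10 endothelial markers summed to between 1846 and 3486, with TEK the highest in 4 libraries and TIE1 in G34W replicate 2, while the defining gene CDH5 did not exceed 10.9. The 8 mural markers (pericytes and smooth muscle) summed to between 14754 and 28608, led by CSPG4. Of the 8 myeloid and osteoclast markers, CD68 was the most abundant at 850 to 1268, PTPRC did not exceed 25.4, and TYROBP and OCSTAMP were listed at 0.

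PDGF ligands are secreted dimers that drive the growth and migration of mesenchymal cells through a pair of receptor tyrosine kinases. PDGFRA binds PDGF-AA and PDGF-CC with high affinity, and PDGFRB binds PDGF-BB and PDGF-DD. VEGF ligands act mainly on endothelial cells through FLT1, KDR and FLT4, with neuropilins as co-receptors. In bone, osteoblast lineage cells secrete VEGFA, which guides vessel growth and osteoclast recruitment, and PDGF-BB from preosteoclasts acts on osteoprogenitors and vessels.

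Per kilobase of each gene's canonical transcript, the scale on which levels of the ligands and receptors are compared, the members spanned a wide range. VEGFC and VEGFA were the 2 highest in each of the 5 libraries, with means of 1372 and 1278 per kilobase, and their levels did not separate, since the ratio of VEGFC to VEGFA lay between 0.991 and 1.21. VEGFB (mean 871), PDGFC (819), PDGFRB (638) and PDGFA (548) came next and exchanged places between libraries. PDGFB was seventh in all 5 libraries, with a mean of 48.4. PDGFRA (14.6) and PDGFD (6.44) were the lowest 2, and PDGFD was above PDGFRA in G34W replicate 1 alone, without which its mean was 2.21. The isoforms behind each value are not given in the table, so these lengths are an approximation.

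**Figure D1:**
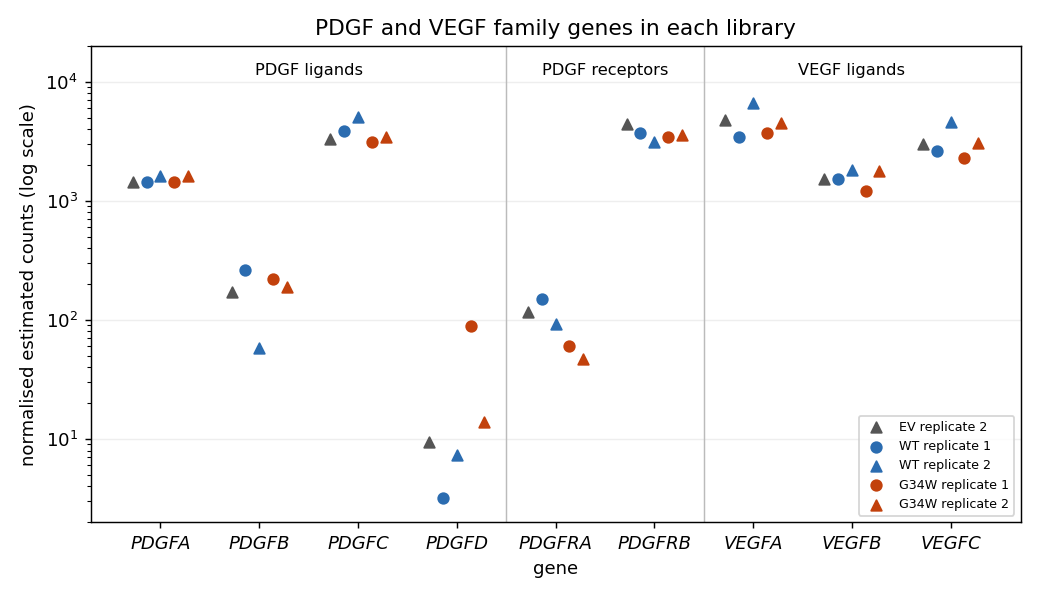
Normalised estimated counts (log axis, not divided by length) of the 9 members in each of the 5 libraries, with colour for the group and shape for the replicate number. PDGFRA is lower in both G34W libraries (47.3 and 60.2) than in the other 3 (91.7 to 149.8), and PDGFD is highest in G34W replicate 1 (89.7).

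The comparison of G34W with WT asks what the mutant histone changes beyond added wild type H3.3. No member passed an adjusted p of 0.05 (limma with a variance trend, Benjamini-Hochberg adjustment over 24560 genes), and no other gene did either, so the background was 0%. At an unadjusted p under 0.05 limma took 791 genes, or 3.22% of those tested, and none of the 9 members. Keeping the 16259 genes with a mean of at least 10 gave 439 genes and again no member. Both counts move with the processing: leaving out 1 library gave 706 to 2671 genes, and a single member fell under 0.05 with libraries scaled to the same sum (PDGFC, unadjusted p = 0.0425), without G34W replicate 2 (PDGFD, 0.0472) and without WT replicate 1 (PDGFB, 0.0374). Leaving out a G34W or WT library leaves that group, like EV, with 1, so only the other pair then measures the spread. Without WT replicate 2 that pair was G34W, and each gene that then passed was listed at 0 in both G34W libraries. None of these genes had a mean of 50 or more, and no member was among them. Both G34W libraries lay below both WT libraries for 2 members, PDGFRA and PDGFC, against a background of 12.6% of genes. PDGFD alone had both G34W libraries above both WT libraries, where the background was 10.5%. For the other 6 members the groups overlapped. The median difference over the 13403 genes with a mean of at least 50 was -0.07 on the log2 scale, and over the 9 members it was -0.20. Without G34W replicate 1 these medians were 0.04 and 0.06, and again no gene passed (1671 at an unadjusted p under 0.05).

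The PDGF receptors differed from each other in level and in pattern. PDGFRA (ENSG00000134853) lies at chr4:54229293-54298245 and PDGFRB (ENSG00000113721) at chr5:150113839-150155845 on GRCh38.p14. PDGFRA, the receptor typical of early mesenchymal progenitors, was at 60.2 and 47.3 normalised counts in G34W replicates 1 and 2, at 149.8 and 91.7 in WT replicates 1 and 2, and at 115.6 in EV replicate 2. The G34W libraries were the lowest 2 of the 5, and EV replicate 2 lay between the WT libraries. The mean was 53.7 ± 9.10 in G34W and 121 ± 41.1 in WT (SD, n = 2 each), a log2 difference of -1.12 on the log2(value + 1) scale (SE 0.45, 95% interval -2.45 to 0.21, limma adjusted p = 0.875). The difference was -1.29 without G34W replicate 1, the library with pluripotency transcripts, and -0.95 without G34W replicate 2. In bulk RNA, fewer cells that express a gene and less of its RNA per cell cannot be told apart. With 2 libraries in each group, the smallest two-sided p that exact permutation allows is 0.333.

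A second gene model shares exons with PDGFRA on the same strand. It is a readthrough model (AC058822.1, ENSG00000282278) that joins the upstream gene FIP1L1 to PDGFRA, and estimated counts can be divided between them. Counts of the model may also come from FIP1L1 sequence, which was not examined. Sums and ratios that include the model are therefore not a measure of PDGFRA alone. It was at 174.9 in EV replicate 2, at 43.9 and 52.5 in WT replicates 1 and 2, at 0 in G34W replicate 1 and at 11.4 in G34W replicate 2. Its share of the summed value ran from 0% in G34W replicate 1 to 60.2% in EV replicate 2. The sums were 60.2 and 58.7 in the G34W libraries, 193.7 and 144.2 in the WT libraries and 290.5 in EV replicate 2. On the sums, an alternative chosen after the values were seen, G34W minus WT was -1.48 (unadjusted p = 0.0152, limma adjusted p = 0.875), and G34W minus EV replicate 2 was -2.27 (unadjusted p = 0.00757, limma adjusted p = 0.705). The order of WT and EV replicate 2 depends on this choice: WT minus EV replicate 2 was 0.02 for PDGFRA alone and -0.79 for the sum.

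PDGFRB, the receptor that marks pericytes and stromal cells, was at 3443 and 3551 in G34W, 3693 and 3131 in WT, and 4379 in EV replicate 2. The G34W values lay inside the WT range, and EV replicate 2 was the highest library. G34W minus WT was 0.04 (95% interval -0.39 to 0.47, limma adjusted p = 0.977), and 0.06 without G34W replicate 1. Per kilobase, PDGFRB exceeded PDGFRA 64.0-fold and 84.0-fold in G34W replicates 1 and 2, 27.6-fold and 38.2-fold in WT replicates 1 and 2, and 42.4-fold in EV replicate 2. With the readthrough model summed into PDGFRA, at the length of PDGFRA, the ratios were 64.0 and 67.7 in G34W, 21.3 and 24.3 in WT and 16.9 in EV replicate 2. Both G34W ratios were above the other 3 either way.

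**Figure D2:**
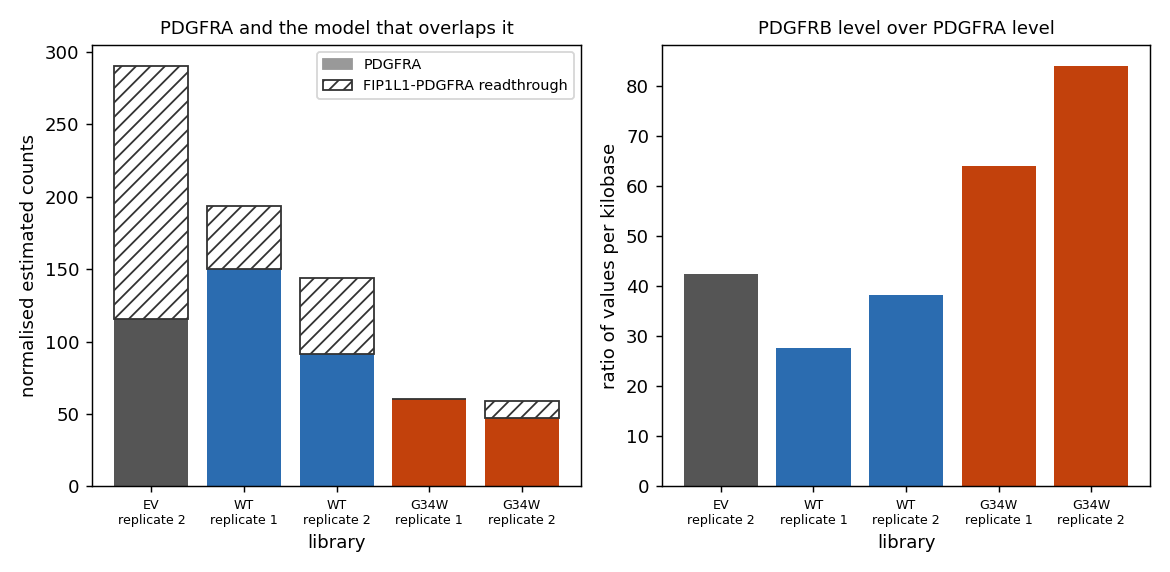
Left, normalised estimated counts of PDGFRA (filled) and of the FIP1L1-PDGFRA readthrough model (hatched) stacked in each library; right, the ratio of PDGFRB to PDGFRA per kilobase of canonical transcript. The summed bars reach 58.7 and 60.2 in G34W and 144.2 to 290.5 elsewhere, and the ratio is 64.0 and 84.0 in G34W against 27.6 to 42.4 in the other libraries.

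Whether promoter sequence bears on the difference in level between the receptors was not tested. The 250 bases before their start sites are shown, from RefSeq on GRCh38.p14. PDGFRA has 2 start sites in that table, with windows at chr4:54229043-54229292 and chr4:54233710-54233959 on the plus strand, and PDGFRB has 1, with its window at chr5:150155846-150156095 on the minus strand. Capitals mark the letters of 3 motifs searched on both strands, namely the CCAAT box (CCAAT), the GC box (GGGCGG) and the core bound by hypoxia-inducible factors (ACGTG or GCGTG). No matches overlap in these windows.
PDGFRA, first start: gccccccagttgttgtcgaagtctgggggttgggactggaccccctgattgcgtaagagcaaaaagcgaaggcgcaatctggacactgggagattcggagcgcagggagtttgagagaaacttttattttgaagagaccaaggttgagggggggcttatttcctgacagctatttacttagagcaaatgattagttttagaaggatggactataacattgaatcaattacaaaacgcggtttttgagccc
PDGFRA, second start: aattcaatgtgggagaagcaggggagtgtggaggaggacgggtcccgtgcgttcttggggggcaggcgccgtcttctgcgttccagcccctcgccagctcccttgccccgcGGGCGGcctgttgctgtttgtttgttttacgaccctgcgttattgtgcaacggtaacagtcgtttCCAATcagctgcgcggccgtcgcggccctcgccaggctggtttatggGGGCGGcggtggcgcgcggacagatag
PDGFRB: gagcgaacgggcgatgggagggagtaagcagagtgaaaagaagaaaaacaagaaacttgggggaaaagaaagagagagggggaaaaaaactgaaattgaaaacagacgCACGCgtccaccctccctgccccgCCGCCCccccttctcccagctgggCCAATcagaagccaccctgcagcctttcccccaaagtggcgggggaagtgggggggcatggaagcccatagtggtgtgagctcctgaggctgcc

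The window before the first PDGFRA start held none of the 3 motifs, and 46.8% of its bases were G or C. The window before the second start held a CCAAT box 74 bases before the start and 2 GC boxes, at 64.0% G or C. The PDGFRB window held a CCAAT box beginning 94 bases before the start, 1 GC box and 1 hypoxia-inducible factor core, at 58.4%. Of 35116 human promoter windows of this length, 32.0% held CCAAT, 42.6% the GC box and 43.2% the hypoxia-inducible factor core. Promoter windows were at hand for 6 of the 9 members, with 10 start sites in all; VEGFB and VEGFC each had 1 match to the hypoxia-inducible factor core, PDGFA had 5 over 3 of its 4 start sites, and PDGFD had none. A match is a string of letters and not a measured binding site.

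Among the PDGF ligands, PDGFC (ENSG00000145431, chr4:156760454-156971799) was the only one of the abundant pair whose groups separated. PDGFC, a ligand that must be cleaved outside the cell before it binds PDGFRA, was at 3119 and 3406 in G34W, 3867 and 5054 in WT, and 3279 in EV replicate 2. The WT libraries were the highest 2, and EV replicate 2 lay between the G34W libraries. G34W minus WT was -0.44 (SE 0.19, 95% interval -1.01 to 0.13, limma adjusted p = 0.875). It was -0.38 without G34W replicate 1 and -0.25 without WT replicate 2, the highest library. PDGFA, the classical PDGFRA ligand, varied least of all members: its 5 values lay between 1426 and 1611, a span of 1.13-fold. G34W minus WT was 0.0023 for PDGFA (95% interval -0.44 to 0.45), and 0.08 without G34W replicate 1.

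PDGFB, whose product binds both receptors, was at 220.7 and 189.0 in G34W, 260.6 and 58.3 in WT, and 173.3 in EV replicate 2. WT replicate 2 was 2.97-fold below the next library, and the other 4 spanned 173 to 261. G34W minus WT was 0.72 with a 95% interval of -1.86 to 3.31, and it was 0.61 without G34W replicate 1 and turned to -0.35 without WT replicate 2.

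PDGFD (ENSG00000170962, chr11:103907189-104164147), a PDGFRB ligand that also needs cleavage, was at 89.7 and 13.8 in G34W, 3.19 and 7.38 in WT, and 9.50 in EV replicate 2. G34W replicate 1 was 6.49-fold above the next library. G34W minus WT was 2.63 (SE 1.21, 95% interval -0.98 to 6.24, limma adjusted p = 0.875) and 1.32 without G34W replicate 1, the library in which all 12 pluripotency markers were highest. Its mean of 24.7 was the lowest of the members, and the only one under 50. DDI1, which shares exon sequence with PDGFD on the opposite strand, was listed at 0 in all 5 libraries.

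The VEGF ligands varied within the groups as much as between them. VEGFA (ENSG00000112715) lies at chr6:43770211-43786487, VEGFB (ENSG00000173511) at chr11:64234584-64239264 and VEGFC (ENSG00000150630) at chr4:176683538-176792922. VEGFA, the main angiogenic ligand and a target of hypoxia signalling, was at 3685 and 4520 in G34W, 3428 and 6616 in WT, and 4807 in EV replicate 2. VEGFC, best known for lymphatic growth, was at 2288 and 3046 in G34W, 2604 and 4560 in WT, and 3024 in EV replicate 2. For both genes WT replicate 2 was the highest library, while WT replicate 1 was the lowest for VEGFA and lay between the G34W libraries for VEGFC. VEGFB, a ligand of FLT1, ranged from 1200 in G34W replicate 1 to 1833 in WT replicate 2. The differences of G34W minus WT were -0.22 for VEGFA, -0.20 for VEGFB and -0.38 for VEGFC, and each 95% interval held 0 (-1.41 to 0.97 for VEGFA). Without WT replicate 2 the VEGFA difference turned to 0.25 and the VEGFC difference to 0.02, and without G34W replicate 1 the VEGFB difference turned to 0.09, while VEGFA was at -0.08 and VEGFC at -0.18.

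WT replicate 2 was the highest of the 5 libraries for 5 of the 8 members with a mean of at least 50, namely PDGFA, PDGFC, VEGFA, VEGFB and VEGFC, and for 33.5% of the 13403 genes at that level. It was the lowest library for PDGFB and PDGFRB. The median log2 ratio of these genes to their mean over the 5 libraries was 0.09 in WT replicate 2 and -0.15 in G34W replicate 1. In WT replicate 2, VEGFC stood 0.60, VEGFA 0.56 and PDGFC 0.46 above their own means on the same scale.

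The comparisons with EV replicate 2 ask what either histone does against the vector. They share that library and rest on 1 library of vector cells, assumed to vary like the other groups. No member and no other gene passed in G34W minus EV replicate 2 (limma, adjusted p under 0.05, background 0%), with 1017 genes (4.14%) at an unadjusted p under 0.05 and no member among them. The same held for WT minus EV replicate 2, with 917 genes (3.73%). These counts move with the processing: leaving out 1 library gave 1308 to 3015 and 1458 to 2512 genes, and keeping the 16259 genes with a mean of at least 10 gave 317 and 157. Without WT replicate 2, 1495 genes passed in WT minus EV replicate 2, of which 1491 were listed at 0 in both G34W libraries, and none was a member. PDGFRA was -1.10 in G34W minus EV replicate 2 (95% interval -2.73 to 0.53) and 0.02 in WT minus EV replicate 2 (-1.61 to 1.65). PDGFRB was -0.32 and -0.36 in the same comparisons, which share EV replicate 2, its highest library. The share of all genes that were highest in EV replicate 2 was not counted. PDGFC was -0.01 and 0.43, and PDGFD was 1.81 and -0.82. Without G34W replicate 1, G34W minus EV replicate 2 was -1.27 for PDGFRA and -0.30 for PDGFRB, PDGFC turned to 0.05, and PDGFD was at 0.50. Limma's adjusted p was 1 for each member in both comparisons.

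**Figure D3:**
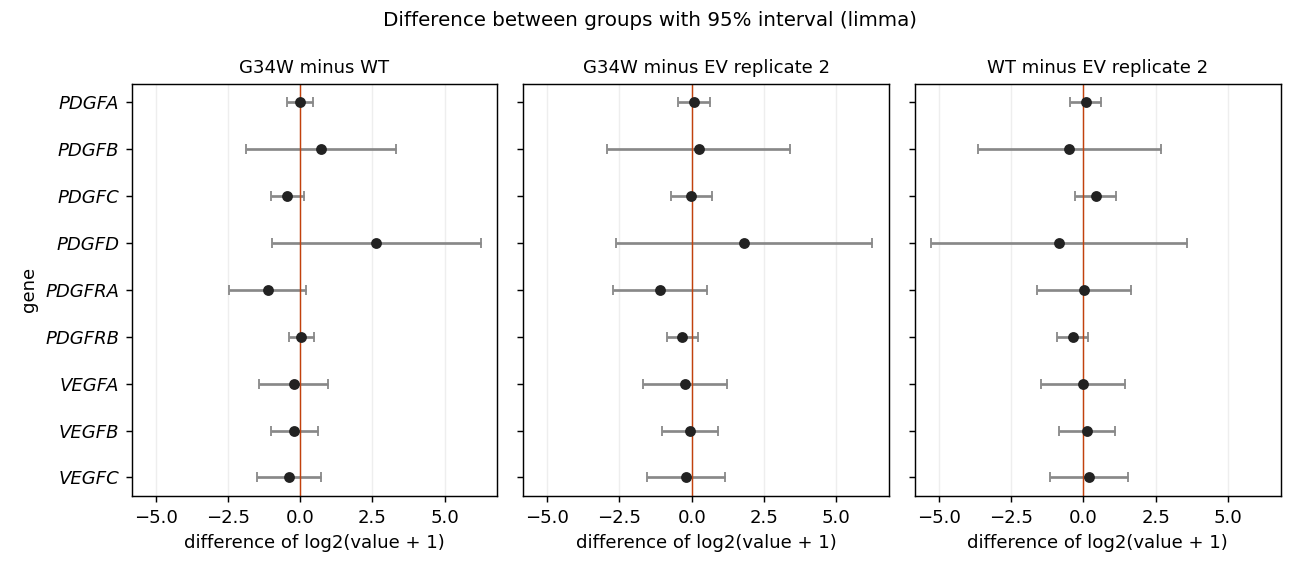
Differences of mean log2(value + 1) between groups (points) with 95% intervals from limma (bars) for the 9 members in the 3 comparisons. Each interval crosses 0; PDGFRA lies at -1.12 in G34W minus WT and at 0.02 in WT minus EV replicate 2, and the intervals are widest for PDGFB and PDGFD.

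The 8 other ligands and receptors of these families were examined as a list. None passed the threshold in any comparison, and 2 had an unadjusted p under 0.05 in G34W minus WT, where 3.22% of all genes did. With the replicate block neither did (PDGFRL 0.0558, PGF 0.0518). PDGFRL, a receptor-like gene without a kinase, was at 290 and 339 in G34W, 164 and 123 in WT, and 204 in EV replicate 2. Both G34W libraries were the highest, with a log2 difference of 1.13 (SE 0.28, unadjusted p = 0.0226, limma adjusted p = 0.875). PGF, the placental ligand of FLT1, was at 831 and 1216 in G34W, 1672 and 1688 in WT, and 1847 in EV replicate 2. Both G34W libraries were the lowest, with a difference of -0.74 (SE 0.24, unadjusted p = 0.0472, limma adjusted p = 0.875). Without G34W replicate 1 the differences were 1.24 for PDGFRL and -0.47 for PGF.

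The VEGF receptors were scarce beside their ligands. Per kilobase, FLT1 (mean 60.6), FLT4 (52.7) and KDR (30.6, or 10.1 without G34W replicate 1) were each far below VEGFA and VEGFC, whereas the co-receptors NRP1 (2344) and NRP2 (864) were abundant. FLT1 was at 831 and 461 normalised counts in G34W, 259 and 404 in WT, and 203 in EV replicate 2. Its G34W values were the highest 2, with a difference of 0.94 (95% interval -0.39 to 2.26), or 0.51 without G34W replicate 1. KDR, the main signalling receptor for VEGFA, was at 656 in G34W replicate 1 and at 26.6 to 78.3 in the other 4 libraries. Its difference was 0.78 with G34W replicate 1, in which pluripotency markers summed to 66576, and -1.51 without it. FLT4, the VEGFC receptor, was at 668 in WT replicate 2 and at 165 to 250 elsewhere, a difference of -0.79 for G34W minus WT that rested on that library: it was -0.053 without WT replicate 2, -1.53 without WT replicate 1 and -0.91 without G34W replicate 1. NRP1 ranged from 10309 to 15646 and NRP2 from 4076 to 7473, with overlapping groups; their differences were -0.18 and -0.08, and 0.06 and -0.10 without G34W replicate 1. VEGFD was listed at 0 in all libraries but G34W replicate 1, at 3.07.

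The 4 further lists took in the steps around the ligands and receptors, and none of their genes passed the threshold in G34W minus WT (limma). For ligand processing, the proteases and cofactors that mature these ligands, 5 of the 11 genes with a mean of at least 50 were higher in G34W and 6 lower, with a median difference of -0.08. PCSK6, a proprotein convertase, was at 160 and 57.6 in G34W and 38.2 and 6.50 in WT, and ADAMTS3, which processes VEGFC, was at 249 and 346 in G34W and 219 and 165 in WT. For both the G34W libraries were above the WT libraries, with differences of 2.51 and 0.62, or 1.77 and 0.86 without G34W replicate 1. PCSK6 reached the mean of 50 only through its G34W values, so the filter favoured its difference. For downstream signalling, 5 of 24 genes were higher and 19 lower, with a median of -0.14, where 5418 of all 13403 genes were higher and 7985 lower with a median of -0.07. PIK3CB, a catalytic subunit of phosphoinositide 3-kinase, was at 589 and 356 in G34W and 350 and 180 in WT. The adaptor NCK1 was at 720 and 1009 in G34W and 1112 and 1126 in WT. The differences were 0.86 for PIK3CB and -0.39 for NCK1, and 0.50 and -0.15 without G34W replicate 1. Without that library, 14 genes of this list were higher and 10 lower with a median of 0.04, and 7680 of all 13403 genes were higher and 5721 lower, also with a median of 0.04. Ligand processing then had a median of -0.05.

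The hypoxia response, the main inducer of VEGFA, had 11 of 28 genes higher and 17 lower with a median of -0.08. P4HA2, a collagen prolyl hydroxylase, was at 8800 and 10561 in G34W and 12306 and 12043 in WT, a difference of -0.34, or -0.21 without G34W replicate 1. EGLN3, an oxygen-sensing hydroxylase, was at 314 in G34W replicate 1 and at 3.09 to 22.7 in the other 4 libraries, again the library in which the pluripotency markers were highest; its difference was 2.91, and 0.83 without that library. EGLN3 reached the mean of 50 only through that library, so the filter favoured its difference. In the growth factor early response, 5 of 15 genes with a mean of at least 50 were higher and 10 lower, with a median of -0.06. DUSP6, a phosphatase induced by ERK signalling, was at 4105 and 3540 in G34W, 2742 and 2934 in WT, and 2874 in EV replicate 2, a log2 difference of 0.43 (SE 0.14, unadjusted p = 0.0504, limma adjusted p = 0.875). Both G34W libraries were the highest. The difference was 0.32 without G34W replicate 1. CCND1, the cyclin that growth factors induce in early cell cycle, was at 19048 and 23880 in G34W and 22216 and 42315 in WT. The CCND1 difference was -0.52, or -0.36 without G34W replicate 1. WT replicate 1 lay between the G34W libraries, so the size of this difference rested on WT replicate 2, the highest library. Without G34W replicate 1 the hypoxia response had 18 of 28 genes higher and a median of 0.10, and the early response 11 of 15 higher and a median of 0.18, beside 7680 of 13403 genes higher and a median of 0.04 over all genes.

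**Figure D4:**
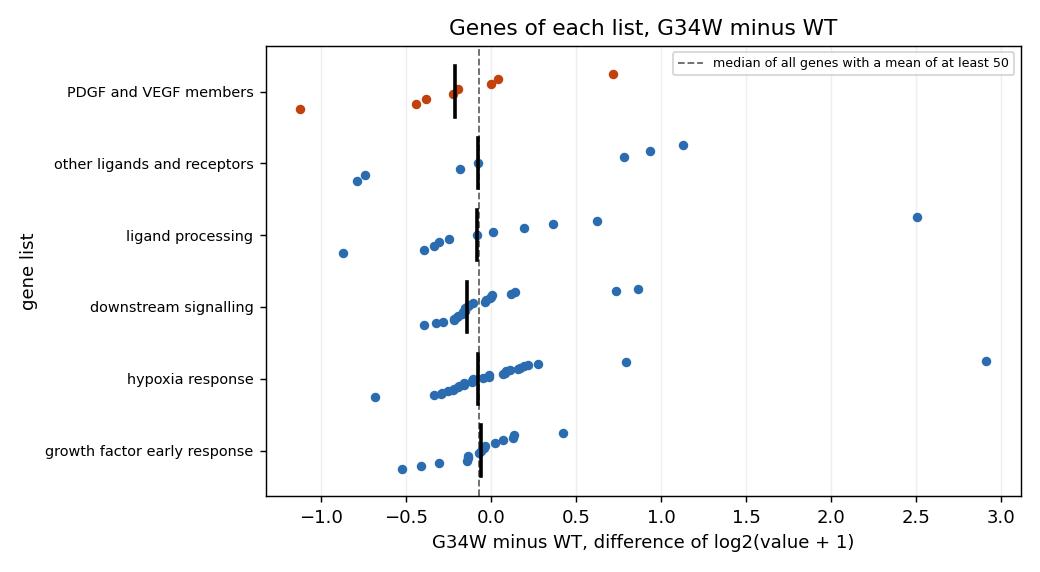
Difference of mean log2(value + 1), G34W minus WT, for each gene with a mean of at least 50 in the members (8 genes, PDGFD left out) and in the 5 lists, 1 point per gene; thick bars are list medians and the dashed line is the median of 13403 genes (-0.07). The list medians lie between -0.14 and -0.06 and the members' median is -0.21.

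PDGFRA was the member with the largest difference between G34W and WT among those with a mean of at least 50 in the fit of all 5 libraries; without WT replicate 1 PDGFB and VEGFC differed more, at 1.79 and -0.79 against -0.77. The genes whose profile over the 5 libraries was nearest to it, by Euclidean distance between centred log2 values among 13402 genes, were SHISA3 (distance 0.19), TRHDE (0.39) and S1PR5 (0.43). TRHDE, a peptidase gene, was at 151 and 155 in G34W, 369 and 295 in WT, and 347 in EV replicate 2. With 5 libraries such a distance describes these libraries only.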

How the data were processed

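RNA was sequenced from poly(A)-selected libraries. The labels name a directional kit, while the methods of the study also describe a kit that keeps no strand, and which of its libraries that was used for is not stated. The authors estimated transcript abundance with kallisto on Ensembl models of GRCh38 (release 99), summed it to genes with tximport and normalised with DESeq2; tool versions are not given in the sources used here, nor is the strand setting. The deposited signal values are these normalised estimated counts, one column per library. They are not whole reads, so no count model was fitted.

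Groups came from the library titles, which conflict with the genotype field. EV replicate 1 was left out. The 5 remaining libraries were fitted with limma 3.58.1 (R 4.3.3) on log2(value + 1) with a variance trend and no covariate, over 24560 genes above 0 in at least 1 library, with Benjamini-Hochberg adjustment and a threshold of 0.05. A pseudocount understates the change of low genes. The fit was tested on simulated data, for genes with a mean of at least 50, with the same spread for every gene. No simulated library stood apart, so the simulation does not measure the power of the fit on these libraries. Levels were divided by the length of the canonical transcript (GENCODE 44). Motifs were searched in RefSeq promoters of GRCh38.p14.

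The members, lists and tests were chosen with earlier results of these data known. Named genes were the 9 members; every other ligand and receptor; in each further list the 2 genes with the smallest unadjusted p in G34W against WT at a mean of at least 50; in each marker list the most abundant gene and genes at 0; and the 3 genes nearest in profile to the member that differed most. POU5F1, RUNX2 and the other marker genes given beside these were named as defining markers after their values were seen. Alternatives were the variance prior, a replicate block, pseudocounts of 0.1 and 10, a minimum mean of 10, 2 scalings and leaving out each library.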

Additional observations from a re-analysis of the deposited data

Results flagged for a closer look

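EV replicate 1 was used in no comparison, yet 2 members had values in it above those of EV replicate 2, the control library in use. VEGFB was at 42024 in EV replicate 1 against 1529 in EV replicate 2, a ratio of 27.5. PDGFD was at 330.5 against 9.50, a ratio of 34.8. Both genes lie on chromosome 11. The 715 genes of that chromosome with a value of at least 50 in EV replicate 2 had a median ratio of 23.8, and on chromosomes 10 and 12 the median ratios were 23.6 and 20.9. Of 10725 such genes on the other chromosomes, 3236 were above 0 in EV replicate 1 and the median ratio was 0. PDGFA, on chromosome 7, was at 18.7 in EV replicate 1, and the other 6 members were listed at 0. The cause was not tested.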

How the results depend on the processing

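No member passed the threshold under any alternative that was run, in any of the 3 comparisons. PDGFRA and PDGFC stayed lower and PDGFD higher in G34W than in WT under each alternative, with ranges of -1.48 to -0.77, -0.63 to -0.25 and 1.32 to 3.94. These are the members whose G34W and WT values did not overlap. Leaving out a library or changing the pseudocount could therefore not turn their signs. The variance prior, the replicate block and the minimum mean left their differences unchanged. The count of genes past the threshold was 0 under each alternative except without WT replicate 2: leaving out 1 library at a time it ran from 0 to 1174 for G34W minus WT and from 0 to 1495 for WT minus EV replicate 2. Nearly all of those genes were listed at 0 in both G34W libraries, where the spread is 0. Without the variance trend 1014, 1319 and 1277 genes had an unadjusted p under 0.05 in G34W minus WT, G34W minus EV replicate 2 and WT minus EV replicate 2, and none passed.

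The titles number the replicates, but nothing says that a number marks a shared culture. The deviations of same-numbered G34W and WT libraries from their group means correlated at 0.0872 across 13403 genes. Since G34W replicate 1 stood apart and weighs on the G34W deviations, this value does not decide whether cultures were shared. With the replicate block, 0 genes passed in each comparison (629, 539 and 648 at an unadjusted p under 0.05). Under the replicate block the G34W minus EV replicate 2 difference turned to -0.36 for PDGFB, 0.12 for PDGFC, 0.075 for VEGFA, 0.14 for VEGFB and 0.11 for VEGFC, and that of WT minus EV replicate 2 to -0.24 for PDGFRA and 0.30 for VEGFA.

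With libraries scaled to a common median ratio, PDGFC turned to 0.038 in G34W minus EV replicate 2 and PDGFRA to -0.0015 in WT minus EV replicate 2. With libraries scaled to the same sum, these were 0.0027 and -0.055, and NRP2 turned to 0.010 in G34W minus WT. With the readthrough model added, PDGFRA turned to -0.79 in WT minus EV replicate 2.

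Other signs turned with 1 library left out. In G34W minus WT the ranges were -0.085 to 0.090 for PDGFA, -0.35 to 1.79 for PDGFB, -0.079 to 0.16 for PDGFRB, -0.70 to 0.25 for VEGFA, -0.48 to 0.087 for VEGFB, -0.79 to 0.020 for VEGFC, -1.51 to 3.07 for KDR, -0.42 to 0.061 for NRP1 and -0.51 to 0.36 for NRP2. In G34W minus EV replicate 2 they were -0.072 to 0.055 for PDGFC, -0.35 to 0.22 for VEGFB and -0.40 to 0.010 for VEGFC. In WT minus EV replicate 2 they were -0.0058 to 0.17 for PDGFA, -1.56 to 0.59 for PDGFB, -0.33 to 0.37 for PDGFRA, -0.49 to 0.46 for VEGFA, -0.0029 to 0.26 for VEGFB and -0.22 to 0.59 for VEGFC. The cause was not tested. With 2 libraries per group, 1 for the vector, the intervals are wide, and the depth behind low values such as those of PDGFD is unknown. The count models planned for a table of counts were not run, since the values are not counts.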
